A study of Homo sapiens with 24 samples.

Results

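The genes described here are 44 genes of mitosis, out of 29639 in each of the 4 tables of comparisons that the authors deposited. They were chosen by their gene names, as regulators of entry into mitosis and as parts of the spindle, the kinetochore and the machinery of cell division, and all 44 were found in the 4 tables. Messenger RNA had been sequenced in Rh30, a cell line of alveolar rhabdomyosarcoma, and RD, a cell line of embryonal rhabdomyosarcoma, a tumour of the skeletal muscle lineage. For 5 days each line was kept in the solvent DMSO, in SGI-110 at 0.5 µM, in dasatinib, or in both drugs, with 3 biological replicates in each of 8 groups and 24 libraries in all. Whether the stated 0.5 µM also applies to dasatinib cannot be read from the labels. SGI-110 (guadecitabine) is a prodrug of decitabine, a cytidine analogue that is built into DNA and traps DNA methyltransferases, and dasatinib inhibits tyrosine kinases of the SRC and ABL families. The tables hold 1 mean level per gene, read as the mean over all 24 libraries of both lines, and no value per library, so the depth of a library is unknown and the spread between replicates enters only through the deposited standard errors. These have the size of 3 libraries per treatment, and each fold change is therefore read as the response of a single cell line, which the tables do not name. Results are given on the log2 fold change scale, each followed by ± its standard error (deposited, or computed for the comparisons that no table holds), and a gene is said to have risen or fallen at an adjusted p under 0.05, by the DESeq2 Wald test of the authors' deposited table where it holds the comparison.

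Mitosis separates the copied chromosomes into daughter cells. Cyclin B and the kinase CDK1 drive entry, kinetochores tie the chromosomes to spindle microtubules, and a checkpoint holds back the anaphase-promoting complex, a ubiquitin ligase, until every kinetochore is attached. Most of the genes are transcribed late in the cell cycle, in G2 and mitosis, under the MuvB complex with B-MYB and FOXM1, and are repressed in resting cells by the DREAM complex. In bulk RNA of a culture, more cells in G2 or mitosis and more RNA per such cell cannot be told apart. The mean normalised count of the 44 genes ran from 422 (CDC25C) to 14692 (TOP2A) in the authors' deposited table, which places the lowest of them above 73.6% of all genes. Normalised counts are not per length and set no order of expression between genes. The genes set beside the 44 below as of like level are therefore alike in mean count only. That mean is read as covering both lines, so some of them may be little expressed in the line of the fold changes. The deposited standard errors of the 44 genes lay between 0.043 and 0.10 log2. All 44 have an adjusted p in each deposited comparison, so no gene was lost to a filter on low values. Muscle lineage markers were present, with mean normalised counts from 268 (of 6 genes, the lowest) to 11865 in the authors' deposited table.

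The start regions of these genes share sequence features that did not enter their choice. RefSeq windows of 300 bases (GRCh38.p14, 250 before and 50 from the transcription start) were matched by symbol for 38 of the 44 genes, in 48 windows, since some genes have several starts; no window was matched for AURKA, BIRC5, FOXM1, TPX2, TTK and UBE2C. They were searched on both strands for the cell cycle genes homology region (CHR), the element bound by MuvB, as TTTGAA or TTCGAA, and for the box bound by the factor NF-Y, as CCAAT. A CHR match stood in 30 of the 38 genes (78.9%), against 19.5% of all 27305 genes with a window. CCAAT stood in 32 (84.2%), against 39.7% of all genes, and both motifs in 26 (68.4%), against 7.85%. Per window rather than per gene, CHR matched 68.8% of the 48 windows and 16.4% of all 35116 windows, and CCAAT 77.1% and 34.6%. A match describes the letters of a window and is not evidence of binding. The windows of 6 genes are printed 5′ to 3′ on the gene's strand, with every CHR and CCAAT match on either strand in capitals, because these genes carry the contrasts of the results: HMMR and KIF20A have the largest rises with dasatinib, PLK1 and CCNB2 hold the pair of motifs close to the start, and SPC24 and SPC25 are the members with the largest falls under SGI-110. Their positions are chr5:163460382-163460681 (+) for HMMR, chr5:138178862-138179161 (+) for KIF20A, chr16:23678639-23678938 (+) for PLK1, chr15:59104896-59105195 (+) for CCNB2, chr19:11155733-11156032 (-) for SPC24 and chr2:168890381-168890680 (-) for SPC25.
HMMR: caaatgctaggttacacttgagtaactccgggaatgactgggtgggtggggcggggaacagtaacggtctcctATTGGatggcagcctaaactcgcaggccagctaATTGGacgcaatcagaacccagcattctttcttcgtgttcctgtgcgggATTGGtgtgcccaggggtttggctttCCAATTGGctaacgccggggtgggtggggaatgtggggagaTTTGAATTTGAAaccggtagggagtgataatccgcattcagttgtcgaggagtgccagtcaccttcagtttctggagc
KIF20A: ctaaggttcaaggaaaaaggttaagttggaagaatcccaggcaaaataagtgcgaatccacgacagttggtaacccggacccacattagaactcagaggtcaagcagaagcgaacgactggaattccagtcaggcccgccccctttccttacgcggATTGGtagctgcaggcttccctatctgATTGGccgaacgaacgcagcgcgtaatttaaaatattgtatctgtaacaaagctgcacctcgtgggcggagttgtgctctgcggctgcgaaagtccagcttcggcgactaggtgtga
PLK1: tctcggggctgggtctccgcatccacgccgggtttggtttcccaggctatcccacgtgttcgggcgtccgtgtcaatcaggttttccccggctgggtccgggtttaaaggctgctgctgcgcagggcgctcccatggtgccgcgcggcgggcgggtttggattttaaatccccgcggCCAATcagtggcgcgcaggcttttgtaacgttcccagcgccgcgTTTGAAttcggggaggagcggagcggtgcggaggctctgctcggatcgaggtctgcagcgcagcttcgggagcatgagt
CCNB2: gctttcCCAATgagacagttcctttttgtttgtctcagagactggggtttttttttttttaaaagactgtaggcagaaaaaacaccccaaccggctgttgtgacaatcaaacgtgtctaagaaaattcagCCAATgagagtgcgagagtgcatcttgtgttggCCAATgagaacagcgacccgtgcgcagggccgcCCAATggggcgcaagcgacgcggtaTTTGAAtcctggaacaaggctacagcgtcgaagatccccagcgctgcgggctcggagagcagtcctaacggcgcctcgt
SPC24: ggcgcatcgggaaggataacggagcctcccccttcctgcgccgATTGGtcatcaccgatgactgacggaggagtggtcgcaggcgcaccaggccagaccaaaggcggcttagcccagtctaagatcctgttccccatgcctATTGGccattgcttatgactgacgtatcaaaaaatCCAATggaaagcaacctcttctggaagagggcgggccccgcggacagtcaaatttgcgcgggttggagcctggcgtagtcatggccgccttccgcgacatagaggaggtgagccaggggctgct
SPC25: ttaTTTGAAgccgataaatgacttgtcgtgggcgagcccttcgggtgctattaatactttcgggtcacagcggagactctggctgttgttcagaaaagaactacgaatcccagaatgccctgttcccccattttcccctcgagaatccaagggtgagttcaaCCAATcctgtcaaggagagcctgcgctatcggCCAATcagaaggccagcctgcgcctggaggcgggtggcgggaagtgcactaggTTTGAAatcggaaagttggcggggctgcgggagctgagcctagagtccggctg
HMMR holds 2 CHR matches in tandem and 5 CCAAT matches, of which 2 on opposite strands overlap. PLK1 has 1 of each, CCNB2 1 CHR and 4 CCAAT, and SPC25 2 of each. KIF20A and SPC24 hold CCAAT (2 and 3 matches) without a CHR match. With SGI-110 HMMR, KIF20A, PLK1 and CCNB2 rose, and SPC24 and SPC25 fell. Whether the motifs relate to the response was not tested.

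**Figure D1:**
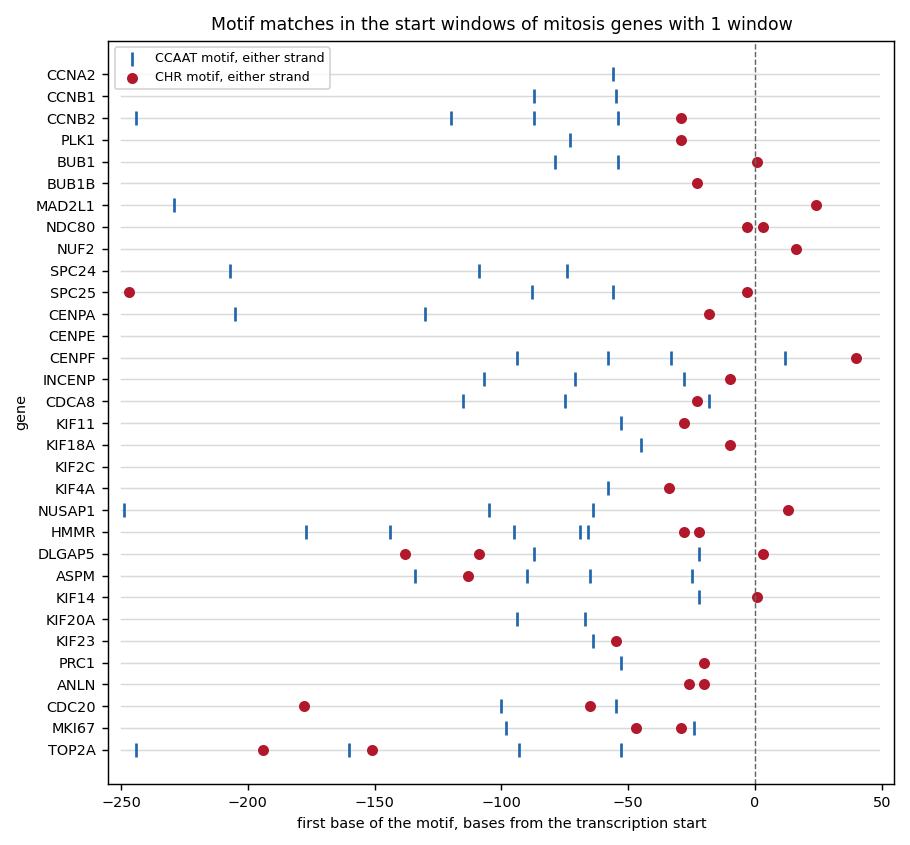
Matches of CHR (red dots) and CCAAT (blue bars) on either strand in the windows of the 32 mitosis genes with 1 RefSeq start, by the distance in bases of the motif's first base from the transcription start (dashed line). Of these genes 26 have a CHR match, and in 16 it begins within the 60 bases before the start; the median CCAAT match begins 74.5 bases before it (-74.5).

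Dasatinib alone raised almost the whole set. Of the 44 genes 43 were higher than in DMSO and 1, CDC25B, was lower in the authors' deposited table. Among all genes tested, 17.8% were higher and 13.2% lower; among the genes at a mean normalised count of 400 or more, the range that holds every member, 32.6% were higher. The median of the 44 log2 fold changes was 0.67, a 1.59-fold level, against 0.070 over the 8008 genes of like level. The rises ran from 0.28 (SPC24) to 1.21 (HMMR), and 38 of the 44 reached 0.5 log2, a size that a called rise reached in 5.68% of all genes and 5.81% of those of like level. Of the latter, 17.4% fell with dasatinib. Markers of cell types moved as well: 3 of 6 muscle genes fell (MYOG -0.41 ± 0.067, DES -0.26 ± 0.088 and CDH15 -0.50 ± 0.076) and the other 3 did not pass, in the authors' deposited table. Beyond muscle, 1 of 3 endothelial genes rose (PECAM1, 1.55 ± 0.080), 1 of 3 fibroblast genes rose and 2 fell, the 4 epithelial genes did not pass and the 4 immune genes had no adjusted p, in the authors' deposited table. Their part in the values of the mitosis genes was not tested.

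SGI-110 alone raised most of the set and lowered a few of its genes. Of the 44 genes 32 rose, 5 fell and 7 did not pass the test in the authors' deposited table; of all genes tested 30.4% rose and 17.1% fell, and of the genes of like level 29.9% and 38.5%. The median was 0.32, against -0.050 over the genes of like level, and the values ran from -0.56 to 1.12. Their standard deviation over genes was 0.40 log2, against 0.24 with dasatinib. Over the genes of like level it was 1.03 with SGI-110 and 0.37 with dasatinib, so a wider spread with SGI-110 is not particular to the set. A called rise of 0.5 log2 or more was seen in 12 members, in 24.2% of all genes and in 12% of those of like level. The genes that fell were SPC24, SPC25, FOXM1, AURKB and PRC1. The fall of AURKB passed narrowly (adjusted p = 0.0476, the authors' deposited table) and did not pass after centring on the median of all genes above a count of 50 (adjusted p = 0.0589, Wald test). Markers of other cell types also moved with SGI-110: 4 of 4 epithelial, 3 of 3 endothelial, 3 of 3 fibroblast and 2 of 4 immune genes rose, and 2 of 6 muscle genes rose and 2 fell, in the authors' deposited table. Their mean normalised counts over all libraries ran from 4.69 to 173 for the epithelial, from 3.85 to 674 for the endothelial, from 217 to 29851 for the fibroblast and from 0.484 to 1.94 for the immune genes. Their part in the values of the mitosis genes was not tested.

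With both drugs 38 of the 44 genes were higher than in DMSO, 1 (SPC24) was lower and 5 did not pass in the authors' deposited table. The background was 29.8% higher and 17.6% lower of all genes, and 33.8% and 36.1% of the genes of like level. The median was 0.53, between those of the single drugs, 24 genes reached 0.5 log2 (as a called rise, 22.6% of all genes and 13.2% of those of like level) and 7 reached 1 log2: HMMR, CCNB1, KIF20A, CDC20, PLK1, MKI67 and AURKA. The 3 comparisons with DMSO share the DMSO libraries, so their values are set side by side and their likeness is not counted as a result. The fall count rose from 1 to 3 when only genes with a mean count of at least 50 entered the adjustment, as SPC25 and CDC25B then passed. Of the markers, 4 of 4 epithelial, 3 of 3 endothelial and 1 of 4 immune genes rose with both drugs, 2 of 3 fibroblast genes rose and 1 fell, and 3 of 6 muscle genes rose and 3 fell, in the authors' deposited table; their part was not tested here either.

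**Figure D2:**
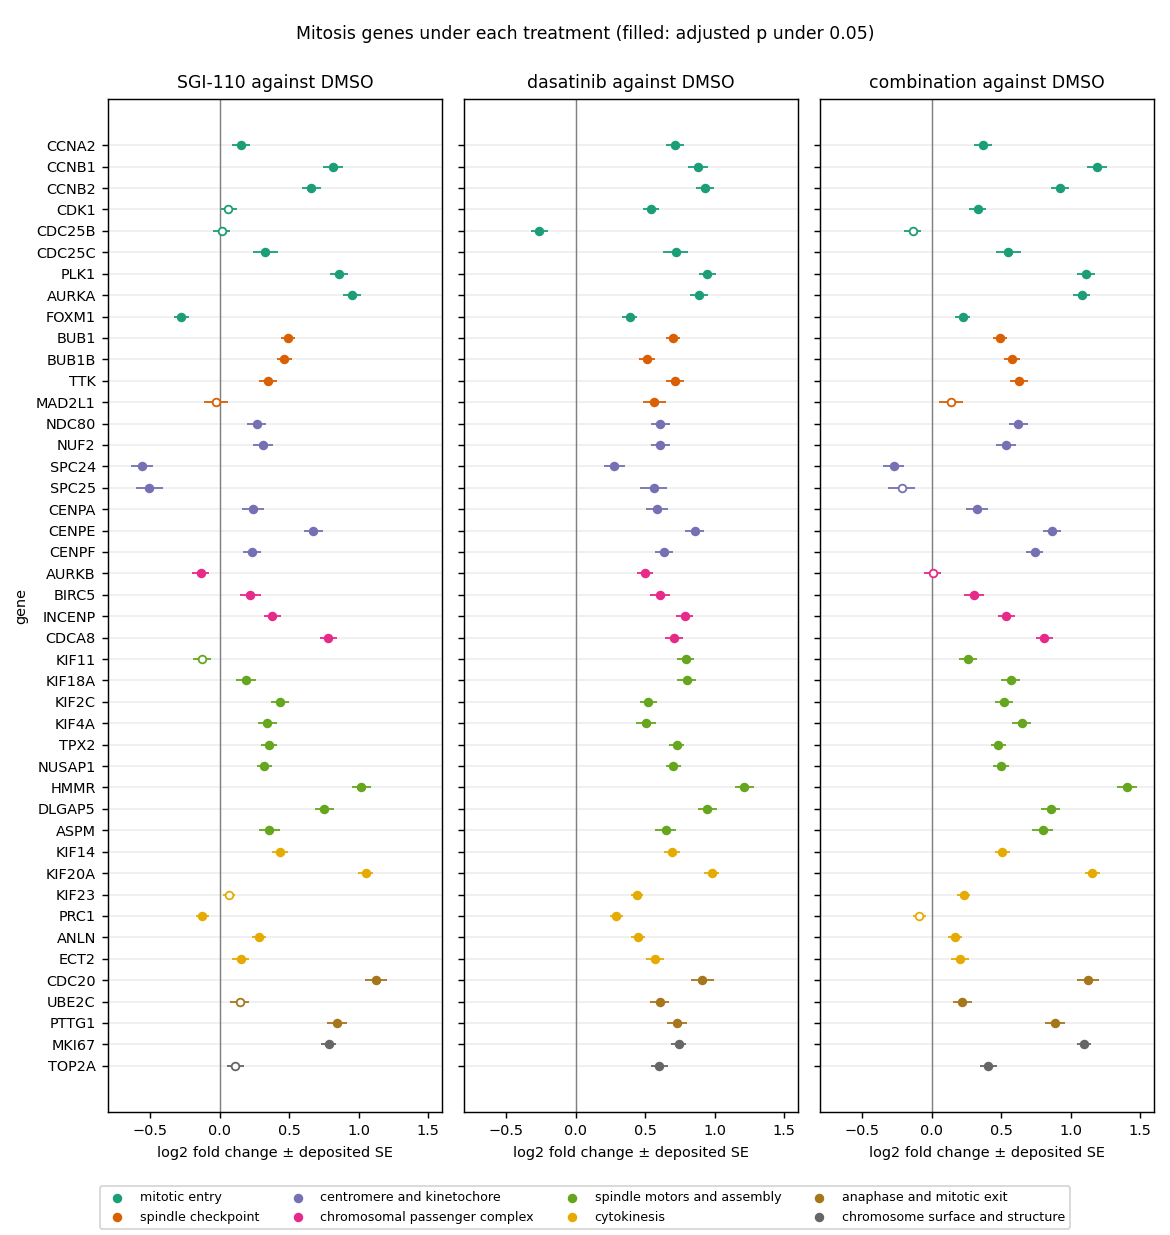
Log2 fold change against DMSO (x axis) of the 44 mitosis genes (y axis) under SGI-110, dasatinib and both drugs, coloured by role, with the deposited standard error as bars; filled points have an adjusted p under 0.05. With dasatinib all but CDC25B lie above 0, with SGI-110 the values run from -0.56 (SPC24) to 1.12 (CDC20), and with both drugs HMMR is highest at 1.40.

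Among the regulators of entry into mitosis, the B cyclins CCNB1 and CCNB2, which activate CDK1, rose under every treatment: CCNB1 stood at 0.82 ± 0.073 with SGI-110, 0.88 ± 0.073 with dasatinib and 1.19 ± 0.073 with both in the authors' deposited table. CCNB2 stood at 0.66 ± 0.066 with SGI-110, 0.93 ± 0.065 with dasatinib and 0.92 ± 0.065 with both in the authors' deposited table. For CCNA2, cyclin A2 of S phase and G2, the values were 0.15 ± 0.064 with SGI-110, 0.72 ± 0.064 with dasatinib and 0.37 ± 0.064 with both in the authors' deposited table, and the rise with SGI-110 was near the threshold (adjusted p = 0.0373). Cyclin A2 thus rose most where dasatinib acted alone. The kinase gene CDK1 itself stood at 0.064 ± 0.059 with SGI-110, 0.54 ± 0.059 with dasatinib and 0.33 ± 0.059 with both in the authors' deposited table, and the first of these did not pass the test (adjusted p = 0.410). PLK1, a kinase of centrosome maturation and of CDK1 activation, stood at 0.86 ± 0.064 with SGI-110, 0.95 ± 0.064 with dasatinib and 1.11 ± 0.064 with both in the authors' deposited table. AURKA, the Aurora kinase of spindle poles, stood at 0.95 ± 0.062 with SGI-110, 0.89 ± 0.063 with dasatinib and 1.08 ± 0.062 with both in the authors' deposited table. Both kinase genes stood among the 7 highest of the 44 under each treatment. The phosphatase genes CDC25B and CDC25C, whose products remove inhibitory phosphates from CDK1, went apart. CDC25C stood at 0.33 ± 0.090 with SGI-110, 0.72 ± 0.089 with dasatinib and 0.55 ± 0.089 with both in the authors' deposited table. CDC25B (chromosome 20, 3786772 to 3806121, GENCODE 29 on GRCh38) stood at 0.017 ± 0.061 with SGI-110, -0.26 ± 0.062 with dasatinib and -0.14 ± 0.062 with both in the authors' deposited table, and its value with dasatinib was the only fall of the set there (adjusted p = 1.57e-04). FOXM1, the transcription factor that activates many of these genes, stood at -0.28 ± 0.054 with SGI-110, 0.39 ± 0.054 with dasatinib and 0.22 ± 0.054 with both in the authors' deposited table: it fell with SGI-110 and rose with dasatinib and with both.

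The 4 spindle checkpoint genes all rose with dasatinib, by 0.51 to 0.72 log2 in the authors' deposited table. BUB1, a kinase that recruits checkpoint proteins to kinetochores, stood at 0.49 ± 0.050 with SGI-110, 0.70 ± 0.050 with dasatinib and 0.49 ± 0.050 with both in the authors' deposited table. BUB1B, which encodes the checkpoint protein BubR1, stood at 0.47 ± 0.057 with SGI-110, 0.51 ± 0.057 with dasatinib and 0.58 ± 0.057 with both in the authors' deposited table. TTK, the MPS1 kinase that starts checkpoint signalling, stood at 0.35 ± 0.065 with SGI-110, 0.72 ± 0.064 with dasatinib and 0.63 ± 0.064 with both in the authors' deposited table. These 3 genes rose under every treatment. MAD2L1, the inhibitor of CDC20, stood at -0.025 ± 0.084 with SGI-110, 0.57 ± 0.083 with dasatinib and 0.14 ± 0.084 with both in the authors' deposited table, and only its value with dasatinib passed the test.

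The Ndc80 complex, the kinetochore's main link to microtubules, did not move as a unit under SGI-110. Its outer subunit genes NDC80 and NUF2 rose, and its inner subunit genes SPC24 and SPC25 fell, while all 4 rose with dasatinib in the authors' deposited table. NDC80 stood at 0.27 ± 0.068 with SGI-110, 0.61 ± 0.068 with dasatinib and 0.62 ± 0.068 with both in the authors' deposited table. NUF2 stood at 0.31 ± 0.072 with SGI-110, 0.61 ± 0.072 with dasatinib and 0.53 ± 0.072 with both in the authors' deposited table. For SPC24 (chromosome 19, 11131520 to 11155808, GRCh38) the values were -0.56 ± 0.078 with SGI-110, 0.28 ± 0.075 with dasatinib and -0.27 ± 0.077 with both in the authors' deposited table. For SPC25 they were -0.50 ± 0.099 with SGI-110, 0.56 ± 0.096 with dasatinib and -0.22 ± 0.098 with both in the authors' deposited table, and the last did not pass (adjusted p = 0.0591). The 95% intervals under SGI-110 were 0.13 to 0.40 for NDC80 and -0.71 to -0.41 for SPC24. Of the genes of like level 29.9% rose and 38.5% fell with SGI-110, with a standard deviation over genes of 1.03 log2. Opposite calls and gaps of this size between genes are therefore not particular to the complex. The remaining kinetochore genes rose under every treatment. CENPA, the histone H3 variant of centromeres, stood at 0.24 ± 0.080 with SGI-110, 0.59 ± 0.078 with dasatinib and 0.33 ± 0.079 with both in the authors' deposited table. CENPE, a kinesin that moves chromosomes to the spindle equator, stood at 0.67 ± 0.067 with SGI-110, 0.86 ± 0.067 with dasatinib and 0.87 ± 0.067 with both in the authors' deposited table. CENPF, a large protein of the outer kinetochore, stood at 0.23 ± 0.063 with SGI-110, 0.64 ± 0.063 with dasatinib and 0.74 ± 0.063 with both in the authors' deposited table.

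The chromosomal passenger complex corrects wrong attachments and later steers cytokinesis, and its 4 genes rose with dasatinib. Its kinase gene AURKB stood at -0.14 ± 0.060 with SGI-110, 0.50 ± 0.059 with dasatinib and 0.0081 ± 0.059 with both in the authors' deposited table. CDCA8, which encodes borealin, stood at 0.78 ± 0.064 with SGI-110, 0.71 ± 0.064 with dasatinib and 0.81 ± 0.064 with both in the authors' deposited table. Borealin's gene kept nearly the same value throughout. INCENP, the scaffold of the complex, stood at 0.38 ± 0.063 with SGI-110, 0.78 ± 0.063 with dasatinib and 0.54 ± 0.063 with both in the authors' deposited table. BIRC5, which encodes survivin, stood at 0.22 ± 0.074 with SGI-110, 0.61 ± 0.074 with dasatinib and 0.30 ± 0.074 with both in the authors' deposited table. With SGI-110 the 3 non-kinase genes rose, whereas AURKB fell by less than any of these rises.

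All 9 spindle motor and assembly genes rose with dasatinib, with a median of 0.73 log2 in the authors' deposited table. HMMR, a spindle pole and microtubule protein (chromosome 5, 163460203 to 163491945, GRCh38), stood at 1.02 ± 0.070 with SGI-110, 1.21 ± 0.070 with dasatinib and 1.40 ± 0.070 with both in the authors' deposited table, or 2.32-fold with dasatinib and 2.65-fold with both. DLGAP5, which stabilises microtubules near chromosomes, stood at 0.75 ± 0.068 with SGI-110, 0.95 ± 0.068 with dasatinib and 0.86 ± 0.068 with both in the authors' deposited table. KIF11, the motor that pushes spindle poles apart and a target of antimitotic drugs, stood at -0.12 ± 0.064 with SGI-110, 0.79 ± 0.063 with dasatinib and 0.26 ± 0.063 with both in the authors' deposited table: it rose with dasatinib and did not pass with SGI-110 (adjusted p = 0.0966). The other members of the group rose under every treatment, and KIF18A and KIF11 were the furthest apart between the single drugs. KIF18A, which trims the plus ends of kinetochore microtubules, stood at 0.19 ± 0.069 with SGI-110, 0.80 ± 0.068 with dasatinib and 0.57 ± 0.068 with both in the authors' deposited table. TPX2, the activator of Aurora A, stood at 0.35 ± 0.056 with SGI-110, 0.73 ± 0.056 with dasatinib and 0.48 ± 0.056 with both in the authors' deposited table. NUSAP1, a microtubule bundler, stood at 0.32 ± 0.055 with SGI-110, 0.70 ± 0.054 with dasatinib and 0.50 ± 0.054 with both in the authors' deposited table. For these 3 the dasatinib value was the highest of the 3 treatments. ASPM, a spindle pole protein, stood at 0.36 ± 0.076 with SGI-110, 0.65 ± 0.075 with dasatinib and 0.80 ± 0.075 with both in the authors' deposited table. KIF2C, a microtubule depolymerase at centromeres, stood at 0.43 ± 0.064 with SGI-110, 0.52 ± 0.064 with dasatinib and 0.52 ± 0.064 with both in the authors' deposited table. KIF4A, a motor on chromosome arms, stood at 0.34 ± 0.070 with SGI-110, 0.51 ± 0.070 with dasatinib and 0.65 ± 0.070 with both in the authors' deposited table. Its intronless copy KIF4B had a mean normalised count of 3.54 in the authors' deposited table, so few reads were counted to it; how reads that match both were counted is not given in the sources used here.

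Of the 6 cytokinesis genes KIF20A moved most. KIF20A, a kinesin of the central spindle, stood at 1.05 ± 0.054 with SGI-110, 0.98 ± 0.054 with dasatinib and 1.156 ± 0.054 with both in the authors' deposited table. KIF14, which binds PRC1 and the citron kinase at the midbody, stood at 0.44 ± 0.057 with SGI-110, 0.69 ± 0.056 with dasatinib and 0.51 ± 0.057 with both in the authors' deposited table. ANLN, the anillin scaffold of the contractile ring, stood at 0.28 ± 0.049 with SGI-110, 0.45 ± 0.049 with dasatinib and 0.17 ± 0.049 with both in the authors' deposited table. In these genes the rise with SGI-110 was the smaller of the single-drug values, except in KIF20A. ECT2, the exchange factor that activates RhoA for furrowing, stood at 0.15 ± 0.062 with SGI-110, 0.57 ± 0.062 with dasatinib and 0.20 ± 0.062 with both in the authors' deposited table. KIF23, the motor of centralspindlin, stood at 0.065 ± 0.044 with SGI-110, 0.44 ± 0.044 with dasatinib and 0.23 ± 0.044 with both in the authors' deposited table. PRC1, which bundles the central spindle, stood at -0.12 ± 0.048 with SGI-110, 0.29 ± 0.048 with dasatinib and -0.088 ± 0.048 with both in the authors' deposited table: it fell with SGI-110 and rose with dasatinib, and the value with both did not pass (adjusted p = 0.120).

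Genes of anaphase onset and mitotic exit also rose with dasatinib. CDC20 (chromosome 1, 43358955 to 43363203, GRCh38), the activator of the anaphase-promoting complex that the checkpoint restrains, stood at 1.12 ± 0.080 with SGI-110, 0.91 ± 0.080 with dasatinib and 1.12 ± 0.080 with both in the authors' deposited table, the highest member value under SGI-110. PTTG1, which encodes securin, stood at 0.85 ± 0.072 with SGI-110, 0.73 ± 0.072 with dasatinib and 0.89 ± 0.072 with both in the authors' deposited table. UBE2C, the ubiquitin-conjugating enzyme of the same complex, stood at 0.14 ± 0.069 with SGI-110, 0.60 ± 0.069 with dasatinib and 0.22 ± 0.069 with both in the authors' deposited table, and the first of these did not pass (adjusted p = 0.0724). Securin and CDC20 rose under every treatment. MKI67, the gene of the proliferation marker Ki-67 that coats mitotic chromosomes, stood at 0.78 ± 0.052 with SGI-110, 0.74 ± 0.052 with dasatinib and 1.10 ± 0.052 with both in the authors' deposited table. TOP2A, the topoisomerase that untangles sister chromatids, stood at 0.11 ± 0.062 with SGI-110, 0.60 ± 0.062 with dasatinib and 0.41 ± 0.062 with both in the authors' deposited table, again without passing under SGI-110 (adjusted p = 0.130).

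**Figure D3:**
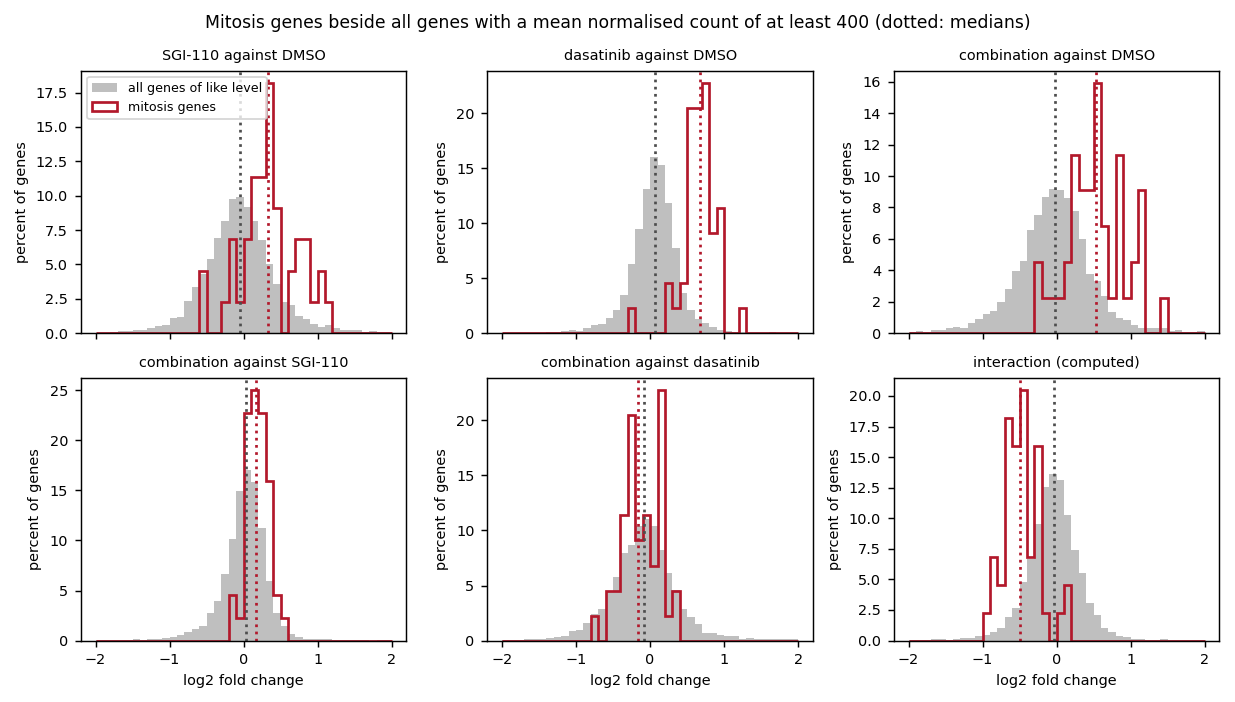
Percent of genes (y axis) by log2 fold change in bins of 0.1 (x axis) for the 44 mitosis genes (red outline) and for the 8008 genes at a mean normalised count of 400 or more (grey), in the 4 deposited and the 2 computed comparisons, with dotted lines at the medians; values beyond 2 log2 are outside the axis. The medians stand furthest apart for dasatinib (0.67 against 0.070) and closest for the combination against dasatinib (-0.17 against -0.077).

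Dasatinib raised fewer of the genes, and by less, where SGI-110 was present. When dasatinib was added to SGI-110, 25 of the 44 genes were higher than with SGI-110 alone, 1 (CDC25B) was lower and 18 did not pass in the authors' deposited table, with 14.2% of all genes higher and 17% lower, and 27.5% and 20.2% of those of like level. The largest of these rises were in CENPF (0.51 ± 0.063), FOXM1 (0.50 ± 0.054), ASPM (0.44 ± 0.075), KIF11 (0.39 ± 0.063), HMMR (0.38 ± 0.068) and KIF18A (0.38 ± 0.067), from the authors' deposited table. The median change was 0.17, against 0.67 without SGI-110, over libraries that the comparisons do not share. The interaction, the dasatinib effect with SGI-110 present less the effect in its absence, was below 0 for 41 of the 44 genes. It passed a two-sided Wald test with Benjamini-Hochberg adjustment over all 29639 genes for 36, all of them lower, where 8.49% of all genes and 20.6% of the genes of like level were lower. Of the 44, 0 passed in the other direction by this test, and 0 did so at an unadjusted p under 0.05 (39 did so as lower); 6.09% of all genes and 14.9% of those of like level were higher, and no other tool was run. The median interaction was -0.50 log2, against -0.039 over the genes of like level. The interaction uses the same DMSO and dasatinib libraries as dasatinib against DMSO, so its count is not independent of the rises there.

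The interaction was largest for CDC20, with -0.91 ± 0.11 (adjusted p = 5.36e-14, computed Wald test): dasatinib moved it by 0.91 ± 0.080 without SGI-110 and by 0.0015 ± 0.078 with it, from the authors' deposited table. KIF20A had an interaction of -0.87 ± 0.075, and its dasatinib effect was 0.98 ± 0.054 without and 0.10 ± 0.051 with SGI-110, from the authors' deposited table. For HMMR the effect went from 1.21 ± 0.070 to 0.38 ± 0.068, which still passed as a rise, from the authors' deposited table. BUB1 went from 0.70 ± 0.050 to -0.0045 ± 0.049 and ANLN from 0.45 ± 0.049 to -0.11 ± 0.048, from the authors' deposited table. At the other end, 8 genes did not pass the interaction test: SPC24, SPC25, NDC80 and CENPF of the kinetochore, ASPM, KIF4A, FOXM1 and CDC25B. CENPF rose by 0.64 ± 0.063 without and by 0.51 ± 0.063 with SGI-110 and FOXM1 by 0.39 ± 0.054 and 0.50 ± 0.054, from the authors' deposited table. The interval of the interaction was -0.30 to 0.044 for CENPF and -0.039 to 0.26 for FOXM1. By role, the 4 checkpoint genes, the 4 passenger genes, the 6 cytokinesis genes and the 3 genes of mitotic exit all had a lower interaction, against 3 of 7 kinetochore genes; whether the roles differ was not tested. The interaction takes the dasatinib table to come from the same cell line as the other 3, which is assumed.

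**Figure D4:**
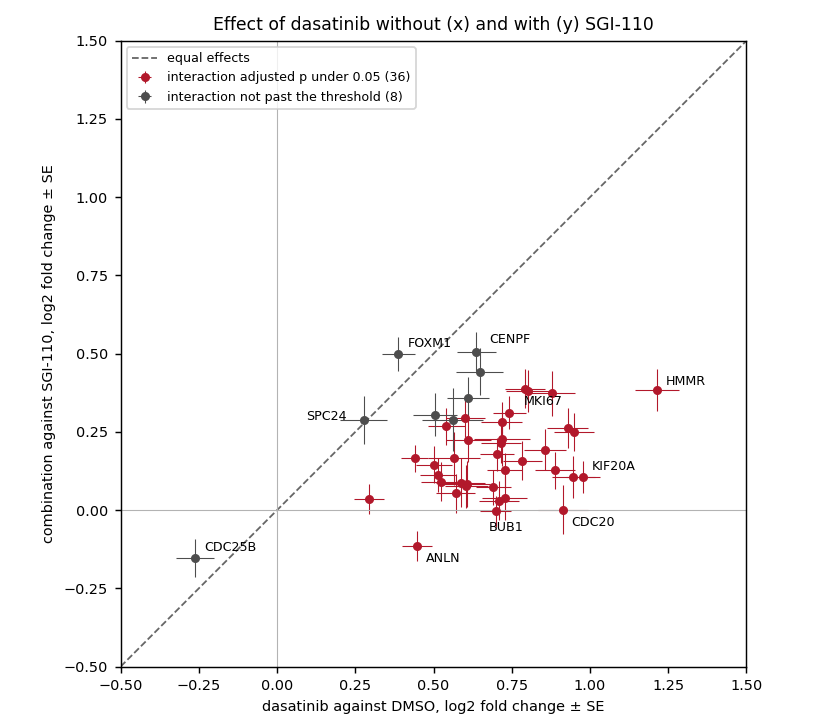
Effect of dasatinib on the 44 mitosis genes without SGI-110 (x axis, dasatinib against DMSO) and with it (y axis, combination against SGI-110), as log2 fold changes with the deposited standard errors as bars; the dashed line marks equal effects. The 36 genes with a called interaction (red) lie below the line, CDC20 near 0 on the y axis, and of the 8 others (grey) FOXM1, CDC25B and SPC24 lie on or just above it.

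The combination was also set against dasatinib alone, a comparison computed here across the deposited tables, under the same assumption on the dasatinib table. Of the 44 genes 22 were lower with both drugs than with dasatinib, 7 were higher and 15 did not pass (Wald test, adjusted over all genes). Lower genes made up 16.5% of all genes and 40.2% of the genes of like level, and higher genes 26.6% and 25.4%, so the share of lower members, 22 of 44, was not far from that of their level. The genes that were lower began with SPC25 (-0.78 ± 0.096), SPC24 (-0.55 ± 0.075), KIF11 (-0.53 ± 0.062) and AURKB (-0.49 ± 0.058). The genes that were higher were MKI67 (0.35 ± 0.052), CCNB1 (0.31 ± 0.072), CDC20, HMMR, AURKA, KIF20A and PLK1, the last 5 by 0.16 to 0.21 log2. The count of higher genes depended on the scaling, with 11 after centring on the median of genes above a count of 50, and on the threshold, with 4 at an adjusted p under 0.01.

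Other genes of the cell cycle, 155 found of 156 in 7 lists that hold none of the 44, were counted in the same way. Their counts stand beside 29.9% higher and 38.5% lower with SGI-110, and 32.6% and 17.4% with dasatinib, among all genes at 400 counts or more, whose medians were -0.050 and 0.070. Of 32 other spindle and cytokinesis genes 28 rose with dasatinib (median 0.50), and with SGI-110 16 rose and 5 fell (median 0.14) in the authors' deposited table. NEK2, a centrosome kinase, stood at 0.56 ± 0.078 with SGI-110 and 0.98 ± 0.077 with dasatinib, and FAM83D, which guides casein kinase to the spindle, at 0.82 ± 0.059 with SGI-110 in the authors' deposited table. PLK4, the kinase of centriole duplication, fell with SGI-110 (-0.50 ± 0.063) in the authors' deposited table. Of 32 other kinetochore and centromere genes 23 rose and 1 fell with dasatinib (median 0.32), and with SGI-110 5 rose and 14 fell (median -0.10) in the authors' deposited table. That share of falls, 43.8%, is near the 38.5% of genes of like level. PMF1, a subunit of the MIS12 complex, fell with SGI-110 (-1.08 ± 0.15) in the authors' deposited table. Of 20 condensin and cohesin genes 18 rose with dasatinib (median 0.38), and with SGI-110 5 rose and 11 fell (median -0.18) in the authors' deposited table. The condensin gene NCAPD2 stood at 0.33 ± 0.050 with SGI-110 and 0.62 ± 0.050 with dasatinib in the authors' deposited table.

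Genes of the step before, from G1 into S phase, mostly rose with dasatinib and mostly fell with SGI-110. With dasatinib 21 of 25 rose (median 0.33), and with SGI-110 3 rose and 15 fell (median -0.28) in the authors' deposited table. The replicative helicase gene MCM6 rose with dasatinib (0.63 ± 0.071), and GINS2 (-0.74 ± 0.078) and E2F1 (-0.48 ± 0.066) fell with SGI-110 in the authors' deposited table. Their interaction was lower for 5 and higher for 2 of 25 (median -0.047), where 20.6% of the genes at 400 counts or more were lower and 14.9% higher, so the share of lower genes was that of the background. It stands beside 36 lower of the 44 mitosis genes (median -0.50) and 17 of the 32 other spindle and cytokinesis genes (median -0.30), by the Wald test computed here. Not every list of mitotic genes shared this. Of 32 other kinetochore and centromere genes 6 were lower and 3 higher (median -0.14). For condensin and cohesin 4 of 20 were lower and 1 higher (median -0.10). For the anaphase-promoting complex and its partners 3 of 18 were lower and 2 higher (median -0.041). In these lists too the share of lower genes was near the background.

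The next lists are read against the same shares, 29.9% up and 38.5% down with SGI-110 and 32.6% up and 17.4% down with dasatinib. Among the regulators of these genes, 14 subunits of DREAM, MuvB and NF-Y had 7 rises with dasatinib, and 1 rise and 7 falls with SGI-110 in the authors' deposited table. MYBL2, which encodes B-MYB, stood at -0.15 ± 0.067 with SGI-110 (adjusted p = 0.0559) and 0.23 ± 0.067 with dasatinib in the authors' deposited table. RBL1, the pocket protein p107, fell with SGI-110 (-0.75 ± 0.073) in the authors' deposited table. Genes of the anaphase-promoting complex and its partners mostly fell with SGI-110, where 11 of 18 genes fell and 3 rose, and 5 rose with dasatinib in the authors' deposited table. Its late activator FZR1 rose with SGI-110 (0.77 ± 0.066) and with dasatinib (0.51 ± 0.066), as did the ubiquitin-conjugating enzyme gene UBE2S (1.59 ± 0.15 and 1.04 ± 0.15), in the authors' deposited table. Of 14 brakes of the cell cycle 9 rose and 1 fell with SGI-110, and 9 rose and 2 fell with dasatinib in the authors' deposited table. The CDK inhibitor gene CDKN1A stood at 0.63 ± 0.077 with SGI-110, -0.074 ± 0.078 with dasatinib and 0.035 ± 0.078 with both in the authors' deposited table, and dasatinib on top of SGI-110 lowered it (-0.60 ± 0.077). WEE1, the kinase that holds CDK1 inactive, stood at 0.14 ± 0.056 and 0.27 ± 0.056 in the authors' deposited table. CDKN1C rose with SGI-110, and no fold change is given because its DMSO group had a solved standard error of 1.18 log2, against at most 0.071 for a group of a mitosis gene.

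**Figure D5:**
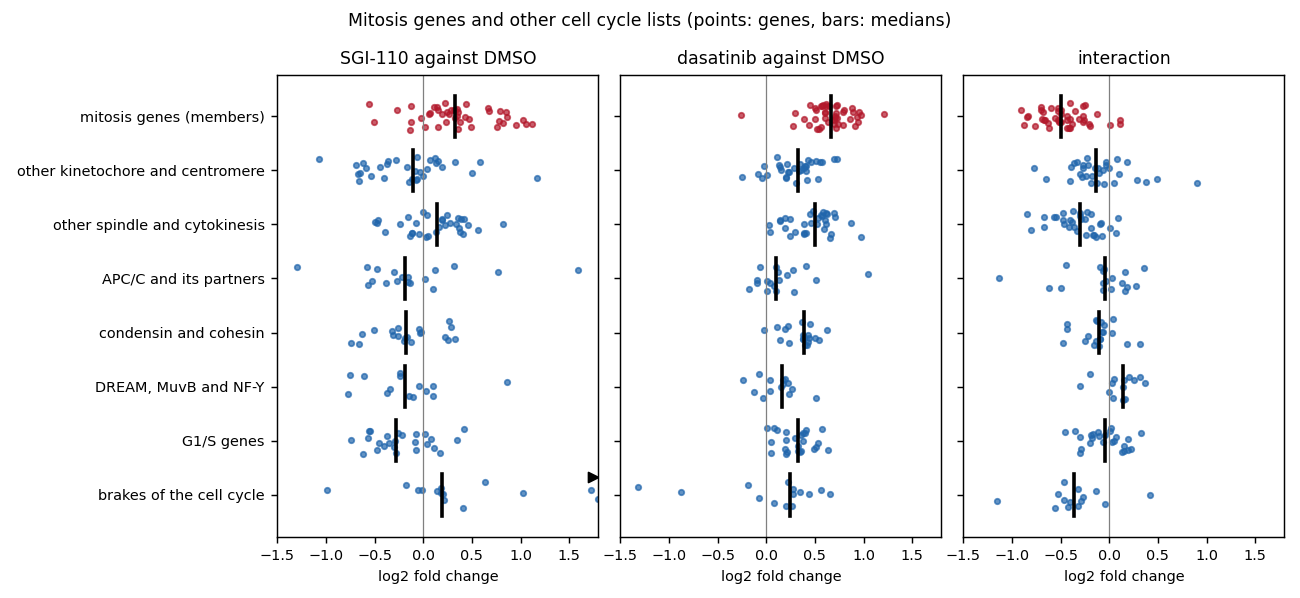
Log2 fold change (x axis) of the 44 mitosis genes and of 7 other lists of cell cycle genes (y axis) under SGI-110, dasatinib and in their interaction; points are genes and bars medians, and the arrow marks a value beyond the axis (CDKN1C). Dasatinib medians lie above 0 in every list shown, SGI-110 medians below 0 in 5 of the 8, and the interaction is lowest for the mitosis genes.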

How the data were processed

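Per the labels' protocols, total RNA was made into stranded mRNA libraries and sequenced as pairs of 75 bases. The submitters' processing notes list DESeq2 1.16.1 and DESeq, HISAT2 2.1.0, Trim Galore 0.4.2 and featureCounts 1.5.1, with the build GRCh38 and no roles. The model formula, filters and the cell line behind each table: not given in the sources used here. Per the file headers, each of the 4 deposited tables gives a signal (baseMean, the mean normalised count over libraries, identical in all 4), a log2 standard error of the fold change, the Wald statistic, which is a score, and the authors' p-value with its adjusted p-value. The adjusted value is missing for a number of genes that differs between tables, and all 44 genes have one.

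The log2 fold change was computed as the deposited statistic times its standard error. The 3 tables that involve the combination or SGI-110 closed as contrasts of 1 fit to within 0.00152 log2. The largest deposited standard error, 6.01, has the size of 3 libraries per treatment (6.01) and not of 6 (4.25) in a fit of 24 libraries at the highest dispersion, so the fold changes are read as those of 1 unnamed line. For the combination against dasatinib, group variances were solved from the deposited standard errors. For the interaction, the squared deposited standard errors of combination against SGI-110 and of dasatinib against DMSO were added. In both, the groups were taken as independent, and two-sided Wald p-values were adjusted by Benjamini-Hochberg over all genes (Python 3.11.15, SciPy 1.17.1). A run on simulated data drew its noise from the same solved variances, so it could not show whether these, or the assumption on the dasatinib table, are right. No count model was fitted here.

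The members and lists were chosen with earlier results of these data known, and the set of genes at 400 counts or more after seeing the members' levels. All 44 members are named by role; of the 7 other lists up to 2 of the largest rises and falls per list and comparison were open to naming, and CDKN1A, MYBL2, E2F1, WEE1 and FZR1 always. A gene that this rule allows is not reported here. Positions come from GENCODE 29 and start windows from RefSeq, both on GRCh38. The alternatives tried are given in the closing section.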

Additional observations from a re-analysis of the deposited data

Results flagged for a closer look

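For 36 of the 44 mitosis genes the effect of dasatinib differed between cultures with and without SGI-110, by the computed Wald test of the interaction with Benjamini-Hochberg adjustment over all genes (adjusted p from 1.09e-28 to 0.0102). The difference, in log2, was taken as the effect with SGI-110 minus the effect without. Among the genes of mitotic entry it was CCNA2 -0.50, CCNB1 -0.50, CCNB2 -0.67, CDK1 -0.27, CDC25C -0.49, PLK1 -0.70 and AURKA -0.76. The checkpoint genes had BUB1 -0.70, BUB1B -0.40, TTK -0.44 and MAD2L1 -0.40, and the kinetochore genes NUF2 -0.39, CENPA -0.50 and CENPE -0.66. In the passenger complex it was AURKB -0.36, BIRC5 -0.52, INCENP -0.63 and CDCA8 -0.68. The spindle motor and assembly genes had KIF11 -0.40, KIF18A -0.42, KIF2C -0.43, TPX2 -0.60, NUSAP1 -0.52, HMMR -0.83 and DLGAP5 -0.84. Cytokinesis genes had KIF14 -0.62, KIF20A -0.87, KIF23 -0.27, PRC1 -0.26, ANLN -0.56 and ECT2 -0.52. The genes of mitotic exit had CDC20 -0.91, UBE2C -0.53 and PTTG1 -0.69, and the chromosome genes MKI67 -0.43 and TOP2A -0.31. How many replicates show each direction cannot be given from tables with no value per library. The interaction counted 8.49% of all genes as lower, and 20.6% of genes of like level, beside 81.8% of the members.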

How the results depend on the processing

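The counts of called members and the single member values were recomputed on genes at a mean normalised count of 50 or more, at an adjusted p under 0.01, with a minimum of 0.5 log2, and after centring on the median of genes above a count of 50; for the 4 deposited comparisons also with the adjustment over every gene with a p-value. Medians were recomputed under centring, and the counts of roles and of the 7 other lists were not recomputed. That centring moved no comparison by over 0.05 log2 (the median interaction, -0.041, and the dasatinib median, 0.041, were the largest), and all 6 medians over the members kept their direction. With a minimum of 0.5 log2, 12 members rose and 2 fell with SGI-110, 24 rose and 0 fell with both drugs against DMSO, 1 rose and 0 fell against SGI-110, 0 rose and 3 fell against dasatinib, 0 fell with dasatinib and 21 had a lower interaction. At an adjusted p under 0.01, 3 fell with SGI-110, 0 fell with both drugs against SGI-110 and 4 rose against dasatinib. On genes above a count of 50, 3 fell with both drugs against DMSO and 2 against SGI-110; centring gave the same counts of 3 and 2, and 11 rises against dasatinib. Without the filter on low counts, 0 fell with both drugs against SGI-110, as CDC25B then had an adjusted p of 0.0568. These falls are 1 to 5 genes by the deposited Wald test, so a single gene moves the count. Centring turned the sign of 4 values near 0: AURKB with both drugs (-0.0049), CDC20 against SGI-110 (-0.0083), and CCNB2 (0.023) and KIF2C (0.028) against dasatinib. The members' motif shares moved little in a window of 150 bases before the start, while the CHR share of all genes fell from 19.5%: CHR stood in 76.3% of the members and 12.4% of all genes, and CCAAT in 81.6% and 31.1%. Of the single member values 1085 kept direction and side of the threshold, 131 fell below it (110 of them under the 0.5 log2 minimum) and 12 passed it. No paired analysis was possible because the tables carry no value per library, and leaving out a replicate was not run for the same reason. Depth is unknown, so precision is known only through the standard errors the authors deposited.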

Other observations

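Several genes outside the 44 also had a lower interaction, by the Wald test computed here. Among them were CEP55, a midbody protein (-0.84 ± 0.091), NEK2 (-0.81 ± 0.11), UBE2S (-1.14 ± 0.21) and the shugoshin gene SGO2, which protects cohesion at centromeres (-0.66 ± 0.091). CEP55 and NEK2 belong to a list with 17 of 32 lower. UBE2S and SGO2 are extremes of lists with 3 of 18 and 6 of 32 lower, shares near the 20.6% of genes at 400 counts or more. Of the brakes of the cell cycle 7 of 14 were lower in the interaction, against 8.49% of all genes and 20.6% of those at 400 counts or more, with CDKN2D at -1.16 ± 0.15, CDKN1A at -0.53 ± 0.11 and WEE1 at -0.29 ± 0.079. In the other direction stood the kinetochore genes PMF1 (0.91 ± 0.20) and MIS12 (0.49 ± 0.079). Both encode subunits of the MIS12 complex, whose other listed subunit genes did not pass. Of the 32 genes of their list 3 were higher, against 14.9% of genes at 400 counts or more. Of the genes of the MCM helicase, MCM5 (0.32 ± 0.11) and MCM3 (0.22 ± 0.063) were higher and MCM6 (-0.35 ± 0.10) was lower. The other listed subunit genes of the helicase did not pass. Among genes at 400 counts or more 14.9% were higher and 20.6% lower, so calls in both directions are not particular to the helicase. Dasatinib lowered the myogenic factor gene MYOG by itself (-0.41 ± 0.067) and on top of SGI-110 (-0.84 ± 0.066) in the authors' deposited table, while SGI-110 alone raised it (0.46 ± 0.066). Of the 6 muscle markers 3 were higher and 3 lower with both drugs than in DMSO, and the interaction was lower for MYOG and DES and higher for CDH15 (0.48 ± 0.11) and CHRNA1 (0.29 ± 0.062). The desmin gene DES fell with both drugs (-0.90 ± 0.089) in the authors' deposited table. These muscle genes were named after their values were seen.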
